A study of Mus musculus with 2 samples.

Results

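Inflammatory cytokines and colony-stimulating factors were followed by the 10 genes Il6, Lif, Il11, Il1a, Il1b, Il1rn, Tnf, Csf1, Csf2 and Csf3, of 32285 genes in the deposited tables. They were chosen by symbol and not by a rule on measured values, although earlier results of these data were known. Interleukin-6, leukemia inhibitory factor (LIF) and interleukin-11 signal through receptors that share the gp130 chain (Il6st) and activate STAT3. Interleukin-1 alpha and beta act on the receptor Il1r1, for which the antagonist Il1rn competes, and both they and tumor necrosis factor activate NF-kappaB. The colony-stimulating factors support macrophages (Csf1), granulocytes and macrophages together (Csf2) and neutrophils (Csf3), and in tumors all of these signals are known to pass between cancer cells, fibroblasts and myeloid cells.

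The data were single-cell RNA-seq counts of unique molecular identifiers (UMIs, each standing for 1 captured transcript) from mouse omental tumors. KPCA is a syngeneic mouse ovarian cancer line of fallopian tube epithelial origin that carries Trp53 R172H and overexpresses Ccne1 and Akt2. Both groups carried a deletion of Fst (follistatin): KPCA.FSTKO, and KPCA.FSTKO_hFSTL3, which is 1 stable clone made from it that expresses human FSTL3 (follistatin-like 3) from a plasmid under geneticin selection. In each group, 1000000 cells were injected into the peritoneum of female C57BL/6J mice aged 12 to 16 weeks, and 4 tumors collected at day 10 were pooled into 1 library. The human transgene is not in the mouse reference and gave no check of the label. With 1 library per genotype no test between genotypes was possible, and clone, pool, library and genotype cannot be told apart. All intervals below are 95% intervals for counting error only.

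After removal of barcodes with 20% or more mitochondrial UMIs or with gene numbers outside the study's limits (more than 200 and fewer than 8000), 6777 barcodes of KPCA.FSTKO and 4041 of KPCA.FSTKO_hFSTL3 remained, with median depths of 17253 and 15071 UMIs. The tables held 7582 and 4244 barcodes before this filter, and 12 barcode sequences occurred in both libraries. The cell numbers stated for the study are those of the unfiltered tables. Barcodes were gated by marker genes into classes, and those with too few markers or with markers of unrelated classes stayed unresolved (31.7% of KPCA.FSTKO and 84.6% of KPCA.FSTKO_hFSTL3). The libraries stood apart in 22 genes of pancreatic acinar cells, most of them for digestive enzymes, and in the median mitochondrial share. In the order KPCA.FSTKO, KPCA.FSTKO_hFSTL3, the acinar genes stood at 290.0 UMIs per 1000000 UMIs (CPM) and 9582 CPM. The mitochondrial share was 3.54% and 10.7%, and these 2 measures were not separated from genotype. The part of the acinar genes and of the mitochondrial share in the differences below was not tested. In KPCA.FSTKO the gate held 3143 cancer, 250 stromal, 58 neutrophil, 872 macrophage and 74 lymphocyte barcodes, and every marker of each of these lists was detected in its class. KPCA.FSTKO_hFSTL3 had 222 cancer, 52 stromal and 176 macrophage barcodes, and only 1 neutrophil and 12 lymphocyte barcodes, so those 2 classes were described in KPCA.FSTKO alone.

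In KPCA.FSTKO, no cytokine gene of the 10 had its highest CPM in cancer-gated barcodes. Il6, Lif and Il11 were highest in stromal-gated barcodes, Il1b, Il1rn, Tnf, Csf1 and Csf3 in neutrophil-gated barcodes, Il1a in macrophage-gated barcodes and Csf2 in lymphocyte-gated barcodes. Among 16840 genes with at least 20 UMIs, 27.7% were highest in the cancer class, 23.1% in the stromal, 15.9% in the neutrophil, 12% in the macrophage and 21.4% in the lymphocyte class. Several of the 10 top ranks were not firm. Csf3 was placed by 1 UMI, Csf2 by 4 UMIs, and Lif differed between the stromal and neutrophil classes by 1.05-fold (0.400 to 3.94). Il1a was ranked against 3 neutrophil UMIs, and the highest class of Il1a and of Il6 changed under some alternatives given below. In KPCA.FSTKO_hFSTL3, where 3 classes could be ranked, Il6, Lif, Il11 and Csf1 were highest in the stromal class (29.7% of 12708 genes), Il1a, Il1b, Il1rn and Tnf in the macrophage class (31.3%) and Csf2 in the cancer class (38.9%). Csf3 had too few UMIs there to be ranked. Unresolved barcodes were left out of both rankings. In KPCA.FSTKO, the 56 between the monocyte and neutrophil lists stood at 482 CPM for Tnf, 400 for Il1rn and 372 for Csf1. Neutrophil-gated barcodes stood at 265, 331 and 338 CPM, in the same order. Il1b was lower in these 56 barcodes than in the neutrophil gate, at 6010 against 11001 CPM.

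**Figure D1:**
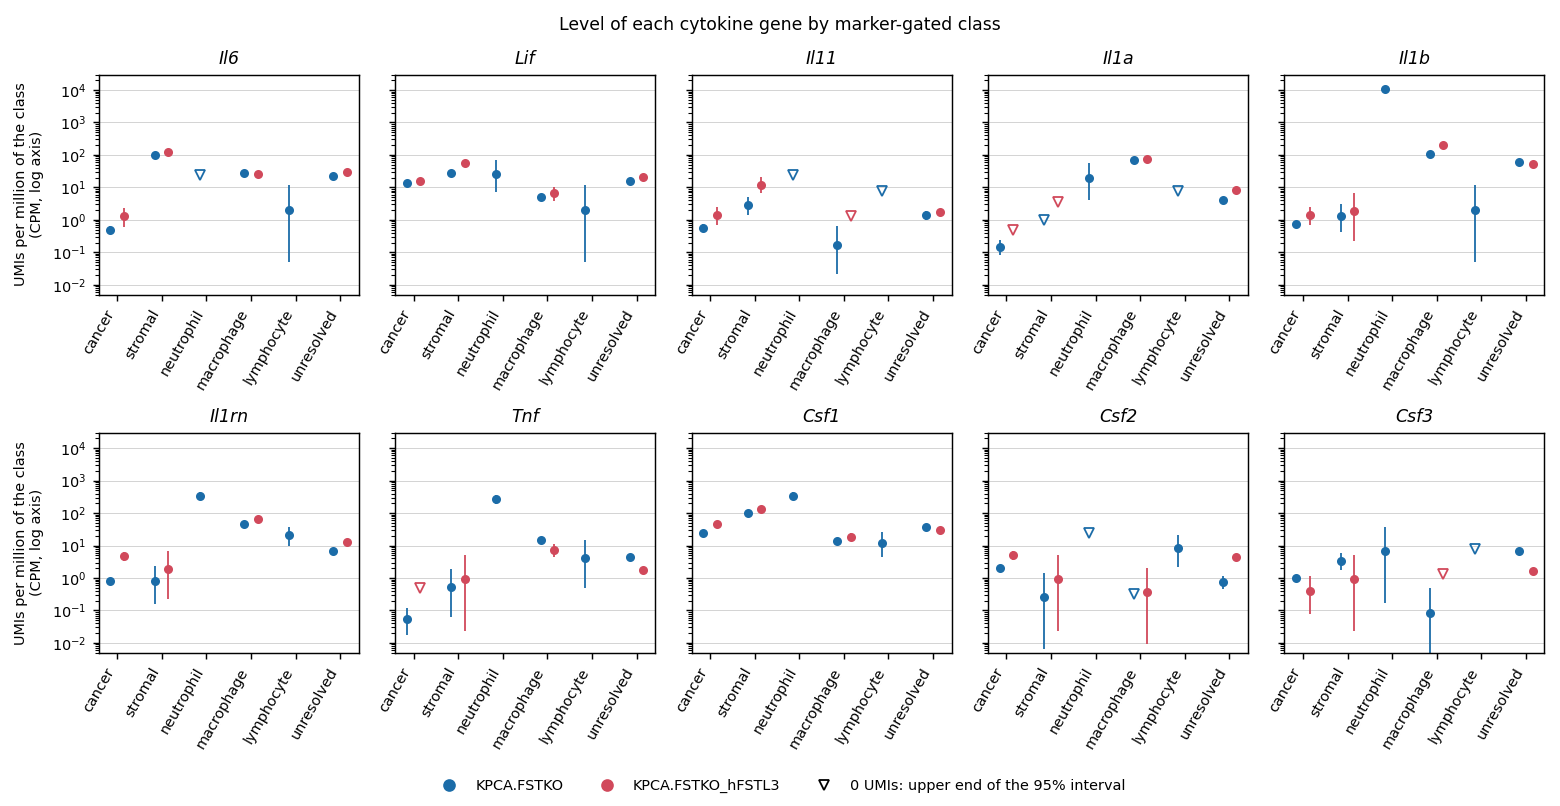
Level of each gene (CPM of the class, log axis) in the marker-gated classes and in unresolved barcodes of both libraries, with 95% Poisson intervals as bars, for classes of at least 50 barcodes; an open triangle marks the upper end of the interval where no UMI was found. Il1b stood at 11001 CPM in neutrophil-gated and 107.5 in macrophage-gated barcodes of KPCA.FSTKO, and Il6 at 102 in stromal-gated and 0.487 in cancer-gated barcodes.

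A class with a low CPM could still hold most of a gene's UMIs. Cancer-gated barcodes of KPCA.FSTKO, by far the most numerous of these 5 classes and the deepest (median 28256 UMIs), held 67.3% of the Lif, 56.2% of the Csf1, 87.5% of the Csf2 and 50% of the Il11 UMIs of that library. They held 3.06% of the Il6, 1.39% of the Il1a, 1.37% of the Il1b and 1.26% of the Tnf UMIs. The 872 macrophage-gated barcodes held 80.8% of the Il1a UMIs, and the 58 neutrophil-gated barcodes held 32.2% of the Il1b UMIs. In KPCA.FSTKO_hFSTL3, unresolved barcodes held between 68.2% (Il1a) and 95.05% (Csf3) of each gene's UMIs.

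**Figure D2:**
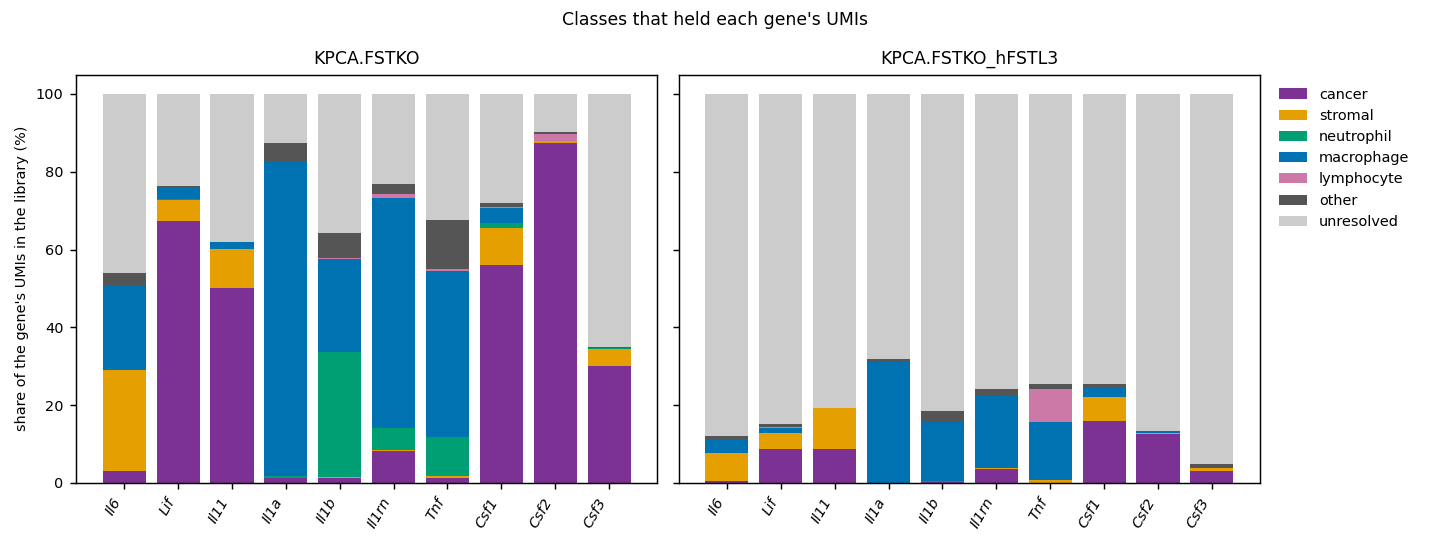
Share of each gene's UMIs in a library (%) held by each gated class, one bar per gene and one panel per library; "other" sums the monocyte, dendritic, endothelial, mast or basophil and erythroid gates. Cancer-gated barcodes held most Lif, Csf1 and Csf2 UMIs of KPCA.FSTKO, whereas unresolved barcodes held most UMIs of all 10 genes in KPCA.FSTKO_hFSTL3.

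The promoters of 4 genes are shown because Il6 was highest in stromal-gated and Il1b and Tnf in neutrophil-gated barcodes, while Lif, a gp130 cytokine like Il6, did not differ firmly between these classes. Each is the 250 bases before the RefSeq start in GRCm38.p6, 5′ to 3′ on the gene's strand, with matches to 4 short motifs in capitals. The motifs were NF-kappaB (GGG, 2 free bases and TTTCC), AP-1 (TGANTCA) and C/EBP (TTNNGCAA), each on both strands, and the TATA box (TATAAA) on the gene's strand.
Il6, chr5:30012864-30013113, plus strand: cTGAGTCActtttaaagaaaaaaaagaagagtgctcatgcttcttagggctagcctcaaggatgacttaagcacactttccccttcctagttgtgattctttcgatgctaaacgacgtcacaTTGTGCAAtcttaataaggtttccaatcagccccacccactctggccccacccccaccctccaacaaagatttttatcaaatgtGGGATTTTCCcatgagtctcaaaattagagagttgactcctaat
Lif, chr11:4257318-4257567, plus strand: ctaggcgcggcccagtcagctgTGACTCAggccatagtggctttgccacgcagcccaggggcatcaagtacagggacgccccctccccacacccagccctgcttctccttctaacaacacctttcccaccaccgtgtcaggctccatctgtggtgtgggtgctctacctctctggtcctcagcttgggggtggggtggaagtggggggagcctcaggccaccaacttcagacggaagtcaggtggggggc
Il1b, chr2:129371140-129371389, minus strand: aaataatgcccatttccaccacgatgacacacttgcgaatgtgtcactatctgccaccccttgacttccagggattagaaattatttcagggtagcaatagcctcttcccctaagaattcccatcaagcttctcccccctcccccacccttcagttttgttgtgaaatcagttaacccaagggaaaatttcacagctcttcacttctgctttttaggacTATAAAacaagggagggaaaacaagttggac
Tnf, chr17:35202008-35202257, minus strand: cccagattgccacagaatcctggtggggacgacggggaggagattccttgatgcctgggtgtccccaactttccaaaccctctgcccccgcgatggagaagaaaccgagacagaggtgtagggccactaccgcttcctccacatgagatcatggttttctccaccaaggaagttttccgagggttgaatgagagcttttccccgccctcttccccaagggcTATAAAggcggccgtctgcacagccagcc

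The Il6 promoter held the NF-kappaB motif 44, the C/EBP motif 128 and the AP-1 motif 249 bases before the start, and the Lif promoter held an AP-1 motif 228 bases before it. Il1b and Tnf held only the TATA box, 31 and 29 bases before the start. Among the 9 members with a promoter entry, AP-1 was found in 5 (Il6, Lif, Il11, Il1a and Il1rn), NF-kappaB in 3 (Il6, Il1rn and Csf1), C/EBP in 2 (Il6 and Csf2) and TATA in 3 (Il1a, Il1b and Tnf). Of 32851 mouse promoters of the same length, 6.75% held AP-1, 1.41% NF-kappaB, 9.56% C/EBP and 7.59% TATA. A match of letters is a description and not a bound site, and Il11 and Il1rn had several entries, of which any could match.

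Il6, which encodes the cytokine that drives acute-phase and STAT3 signalling, was the member with the sharpest contrast between stroma and cancer cells. Stromal-gated barcodes of KPCA.FSTKO held 391 Il6 UMIs (102 CPM, interval 92.1 to 113), macrophage-gated barcodes 323 (28.0 CPM, 25.0 to 31.2) and cancer-gated barcodes 46 (0.487 CPM, 0.356 to 0.649). No Il6 UMI was found in the 58 neutrophil-gated barcodes and 1 in the 74 lymphocyte-gated barcodes. The stromal level was 210-fold (154 to 291) the cancer level and 3.65-fold (3.14 to 4.24) the macrophage level. KPCA.FSTKO_hFSTL3 had the same order, with 133 UMIs (125 CPM) in stromal-gated, 69 (25.2 CPM) in macrophage-gated and 10 (1.30 CPM) in cancer-gated barcodes. The order depended on the gate: when a class had to lead by a share of 3 instead of 2, 71 stromal-gated barcodes of KPCA.FSTKO held 16 Il6 UMIs (19.7 CPM), below the macrophage level of 26.5 CPM at that gate.

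At least 1 Il6 UMI was found in 26.0% of stromal-gated, 13.8% of macrophage-gated and 1.24% of cancer-gated barcodes of KPCA.FSTKO, whose median depths were 15122, 12704 and 28256 UMIs. Thinned to 1000 UMIs per barcode, the shares were 7.66%, 2.20% and 0.0637%, in the same order. Whether Il6 UMIs of macrophage-gated barcodes came from stromal RNA was not tested. Per 100 UMIs of Col1a1, Col1a2 and Col3a1, stromal-gated barcodes held 0.429 Il6 UMIs and macrophage-gated barcodes 27.9 in KPCA.FSTKO, and 0.604 and 32.1 in KPCA.FSTKO_hFSTL3. In stromal-gated barcodes of KPCA.FSTKO, Il6 occurred with Csf1: 83.1% of the 65 Il6-positive barcodes had a Csf1 UMI against 48.6% of the others, a description in which deeper barcodes are more likely to have both.

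Unresolved barcodes in which the stromal and monocyte lists led together carried more Il6 than the stromal gate itself. The monocyte list, which includes Fn1 and Vcan, was not particular to monocytes. In KPCA.FSTKO it summed to 3510 CPM in stromal-gated and 2280 in cancer-gated barcodes, against 13110 in monocyte-gated ones. Whether the unresolved barcodes held monocytes was not tested. In KPCA.FSTKO, 163 such barcodes held 484 Il6 UMIs (160.4 CPM), and in KPCA.FSTKO_hFSTL3, 23 held 104 (153 CPM). In the unsupervised clusters, the stromal cluster led by Slit3, Ror1 and Col1a2 held 957 of the library's 1503 Il6 UMIs (126 CPM) in 441 KPCA.FSTKO barcodes. A second cluster assigned to the stromal class, led by Rgs5, Higd1b and Abcc9, held 13 (18.6 CPM) in 46 barcodes. Its leading genes were not those of the first, and whether the 2 clusters hold the same cell type was not tested. Il6 was far lower in the second of the 2 stromal clusters, where Csf1 also stood at 20.04 CPM against 93.8. The 10 members were left out of the variable genes used for these clusters, and the contrast is a description.

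Lif encodes leukemia inhibitory factor, which acts through Lifr and gp130. In KPCA.FSTKO it reached 27.9 CPM (22.9 to 33.7, 107 UMIs) in stromal-gated barcodes, 26.5 (7.21 to 67.8, 4 UMIs) in neutrophil-gated, 14.0 (13.3 to 14.8, 1326 UMIs) in cancer-gated and 4.94 (3.74 to 6.40, 57 UMIs) in macrophage-gated barcodes. The stromal level was 1.99-fold (1.62 to 2.43) the cancer level, while the neutrophil interval covered both. Lif UMIs were found in 18.4% of cancer-gated barcodes, and 1.08% after thinning, against 4.01% and 0.463% of macrophage-gated barcodes. In KPCA.FSTKO_hFSTL3 the level was 16.1 CPM in cancer-gated (124 UMIs) and 55.6 in stromal-gated barcodes (59 UMIs), but 46 of those 59 UMIs lay in 1 barcode. With the stricter gate share of 3, the stromal level of KPCA.FSTKO was 7.38 CPM and the cancer class was highest.

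Il11, a gp130 cytokine known from fibrosis, was sparse in both libraries, with 108 and 125 UMIs. Cancer-gated barcodes held 54 UMIs in KPCA.FSTKO (0.571 CPM) and 11 in KPCA.FSTKO_hFSTL3 (1.43 CPM), and stromal-gated barcodes held 11 (2.87 CPM) and 13 (12.2 CPM). The stromal level was 5.02-fold (2.37 to 9.72) the cancer level in KPCA.FSTKO. Of the 13 stromal UMIs of KPCA.FSTKO_hFSTL3, 7 lay in 1 barcode. Macrophage-gated barcodes held 2 Il11 UMIs in KPCA.FSTKO and 0 of 176 barcodes had one in KPCA.FSTKO_hFSTL3, which at 3 counts of the total allows up to 1.70% of barcodes with an Il11 UMI, and is no limit on cells that express it.

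Among the interleukin-1 genes, Il1a lay mostly in macrophage-gated barcodes of KPCA.FSTKO. Macrophage-gated barcodes held 813 of the 1006 UMIs of KPCA.FSTKO (70.4 CPM, 65.7 to 75.4), cancer-gated barcodes 14 (0.148 CPM) and stromal-gated barcodes 0, which makes the macrophage level at least 90.0-fold the stromal one at a floor of 3 UMIs per class. In KPCA.FSTKO_hFSTL3 the macrophage class held 213 UMIs (77.7 CPM, 67.6 to 88.8) and the cancer and stromal classes none, so that the macrophage level was at least 199-fold the cancer one. An Il1a UMI was found in 35.0% and 35.8% of macrophage-gated barcodes, and in 5.09% and 7.83% after thinning. Neutrophil-gated barcodes of KPCA.FSTKO held 3 Il1a UMIs (19.9 CPM), and the macrophage level was 3.55-fold (1.21 to 17.2) the neutrophil level. Monocyte-gated barcodes of KPCA.FSTKO, 46 in number, stood at 111 CPM (45 UMIs), and the 56 unresolved barcodes between the monocyte and neutrophil lists at 296 CPM (54 UMIs). In 2 alternatives Il1a was higher in the neutrophil than in the macrophage class, at 141 CPM against 67.7 with classes from Seurat clusters, and at 195 against 70.5 with a monocyte list shortened by Fn1, Vcan, Gsr and Hp, which was chosen after seeing the data. The 14 Il1a UMIs of cancer-gated barcodes stood at 0.851 per 100 UMIs of the complement genes C1qa, C1qb and C1qc, against 0.906 in macrophage-gated barcodes. Their source was not tested.

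Il1b, the secreted interleukin-1 that the inflammasome matures, was highest in neutrophils by a wide margin. The 58 neutrophil-gated barcodes of KPCA.FSTKO held 1662 UMIs (11001 CPM, 10478 to 11543), 872 macrophage-gated barcodes 1241 (107.5 CPM, 101.6 to 114), 250 stromal-gated barcodes 5 (1.30 CPM) and 3143 cancer-gated barcodes 71 (0.751 CPM). The neutrophil level was 102-fold (95.01 to 110.2) the macrophage level. Il1b was present in 79.3% of neutrophil-gated barcodes at a median depth of 2581 UMIs and in 17.3% of macrophage-gated barcodes at 12704, or 78.6% and 6.71% after thinning, with 0.0637% of thinned cancer-gated barcodes as the background. The wider neutrophil cluster of 150 KPCA.FSTKO barcodes stood at 6801 CPM.

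Within macrophages Il1b was uneven. The 44 barcodes with the most Il1b, 5% of the class, held 74.5% of the class's Il1b UMIs in KPCA.FSTKO, compared with 44.3% for Il1a and 48.6% for Il1rn in their own top 44. S100a8 and S100a9 are the most abundant neutrophil markers. Il1b stood at 26.9 UMIs per 100 S100a8 and S100a9 UMIs in neutrophil-gated and at 129 in macrophage-gated barcodes of KPCA.FSTKO, and at 728 in macrophage-gated barcodes of KPCA.FSTKO_hFSTL3. Whether Il1b UMIs of macrophage-gated barcodes came from neutrophil RNA was not tested. Monocyte-gated barcodes stood at 762 CPM in KPCA.FSTKO, between these classes, and at 411 CPM in the 11 barcodes of KPCA.FSTKO_hFSTL3.

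Il1rn, the natural antagonist of the interleukin-1 receptor, followed the order of Il1b with a smaller span. Its level was 331 CPM (246 to 436, 50 UMIs) in neutrophil-gated, 45.8 (42.004 to 49.9, 529 UMIs) in macrophage-gated and 0.783 (0.615 to 0.983, 74 UMIs) in cancer-gated barcodes of KPCA.FSTKO. The neutrophil level was 7.22-fold (5.29 to 9.66) the macrophage level. All 10 lymphocyte UMIs lay in 1 barcode. In macrophage-gated barcodes of KPCA.FSTKO, 43.7% of those with Il1b also had Il1rn against 24.1% of those without, and 37.4% of those with Il1a had Il1rn against 22.2% of those without. These pairs share sequencing depth and are given as a description.

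Tnf, which encodes tumor necrosis factor, was low in number in every class, and its UMIs came to 396 (KPCA.FSTKO) and 133 (KPCA.FSTKO_hFSTL3). In KPCA.FSTKO the 58 neutrophil-gated barcodes held 40 UMIs (265 CPM, 189 to 361), of which 21 lay in 1 barcode and all in 5. Macrophage-gated barcodes held 169 (14.6 CPM, 12.5 to 17.0) in 86 barcodes, cancer-gated barcodes 5, stromal-gated 2 and lymphocyte-gated 2. The 56 unresolved barcodes between the monocyte and neutrophil lists held 88 Tnf UMIs (482 CPM, 386 to 593), in 15 barcodes. In KPCA.FSTKO_hFSTL3 macrophage-gated barcodes held 20 UMIs (7.29 CPM, 4.45 to 11.3) and cancer-gated barcodes none. There, 11 further UMIs came from 1 of the 12 lymphocyte-gated barcodes.

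Csf1, the growth factor of macrophages, was the member found in the most cancer-gated barcodes. Cancer-gated barcodes of KPCA.FSTKO held 2294 UMIs (24.3 CPM, 23.3 to 25.3), stromal-gated barcodes 387 (101 CPM, 91.2 to 111.5), neutrophil-gated 51 (338 CPM, 251 to 444) and macrophage-gated 155 (13.4 CPM, 11.4 to 15.7). A Csf1 UMI was seen in 34.8% of cancer-gated and 57.6% of stromal-gated barcodes, and in 2.07% and 9.27% after thinning, compared with 1.39% of thinned macrophage-gated barcodes. The neutrophil level was 3.34-fold (2.45 to 4.49) the stromal level, which was 4.16-fold (3.73 to 4.64) the cancer level. The 51 neutrophil UMIs lay in 19 of 58 barcodes, with 10 in 1 barcode and 45.1% in 3 barcodes. In KPCA.FSTKO_hFSTL3 the levels were 47.2 CPM (42.5 to 52.3) in cancer-gated, 132 (111 to 156) in stromal-gated and 18.6 (13.8 to 24.4) in macrophage-gated barcodes, and the order of these 3 classes was the one seen in KPCA.FSTKO.

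Csf2, the granulocyte-macrophage factor, came largely from few cancer-gated barcodes in KPCA.FSTKO, but not in KPCA.FSTKO_hFSTL3. In KPCA.FSTKO, 196 of its 224 UMIs (2.07 CPM, 1.79 to 2.38) lay in 63 of 3143 cancer-gated barcodes, 30 of them in 1 barcode. The 872 macrophage-gated barcodes held none, which at 3 counts of the total allows up to 0.344% of barcodes with a Csf2 UMI, and the lymphocyte class held 4 (8.24 CPM, 2.25 to 21.1). In KPCA.FSTKO_hFSTL3, 38 UMIs (4.94 CPM, 3.50 to 6.79) lay in 6 of 222 cancer-gated barcodes, and again 30 were in 1 barcode, while 263 of the library's 304 Csf2 UMIs lay in 227 unresolved barcodes.

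Csf3, the neutrophil growth factor, was the member least well placed by the gate. In KPCA.FSTKO, cancer-gated barcodes held 92 UMIs (0.973 CPM, 0.784 to 1.19) and stromal-gated barcodes 13 (3.39 CPM, 1.81 to 5.80), while unresolved barcodes held 199 of 306. Of those 199, 139 lay in the 163 barcodes in which the stromal and monocyte lists led together (46.1 CPM). The stromal cluster led by Slit3 held 168 Csf3 UMIs (22.2 CPM), and the stromal class held 124 (20.2 CPM) with the shortened monocyte list. Neutrophil-gated barcodes held 1 Csf3 UMI. In KPCA.FSTKO_hFSTL3 the library held 101 Csf3 UMIs, 96 of them in unresolved barcodes, and the monocyte and stromal barcodes, 23 in number, held 2.

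Outside the named classes, 15 mast or basophil-gated barcodes of KPCA.FSTKO held 3 of the 10 members. All 15 expressed the mast cell proteases Cma1 and Tpsb2 and the carboxypeptidase Cpa3, whereas the basophil protease Mcpt8 was in 1. They held 33 Tnf UMIs (412 CPM) in 4 barcodes, 26 of them in 1 barcode, and 29 Il6 UMIs (362 CPM) in 5 barcodes, 16 of them in 1. Csf1 had 18 UMIs (225 CPM) in 7 barcodes, 9 of them in 1 barcode, and the other 7 members had no UMI there. KPCA.FSTKO_hFSTL3 had no barcode in this gate.

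The largest part of KPCA.FSTKO_hFSTL3 did not sort into the classes. Clusters 0, 4 and 7, with 1847, 717 and 598 barcodes, all had the trypsinogen gene Prss2 among their 10 leading genes. Genes of the acinar list led cluster 0. Reg3b and Gzmc stood first in cluster 4, whose 10 leading genes also held Clps, Cpa1, Sycn, Reg1 and Pnliprp1 of the acinar list. Rpgrip1 and Slc39a1 stood first in cluster 7, whose 10 leading genes also held Cpb1, Pnliprp1 and Cela3b of that list. The clusters held 1108, 60 and 331 Il6 UMIs. Il6 was at 28.1, 20.5 and 28.2 CPM in them, Il1b at 52.3, 50.4 and 48.7, Lif at 21.7, 22.5 and 22.0, and Csf1 at 26.6, 29.7 and 34.4. All 10 members were found in all 3 clusters. The levels of these 4 genes lay close together across the 3, whereas Il1b stood at 202 CPM in macrophage-gated and 1.43 in cancer-gated barcodes of the same library. Il1b and Il6 were seen in 1711 (Il1b) and 1144 (Il6) of the 4041 barcodes, against 400 and 396 of 6777 in KPCA.FSTKO. Whether these UMIs belong to cells in those barcodes or to free RNA was not tested.

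**Figure D3:**
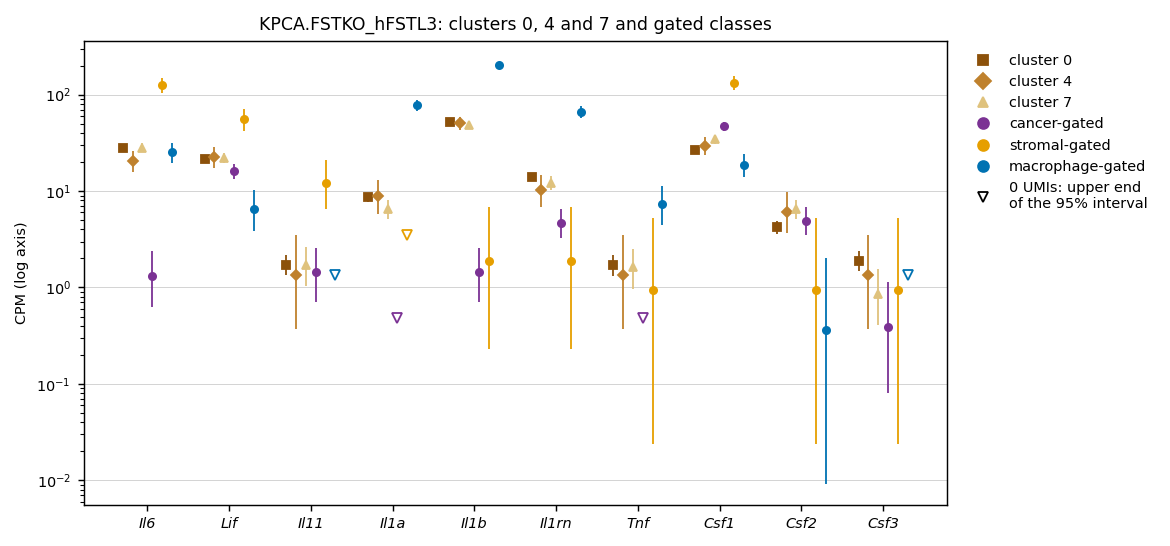
Level of each gene (CPM, log axis) in clusters 0, 4 and 7 and in 3 gated classes of KPCA.FSTKO_hFSTL3, with 95% Poisson intervals as bars; an open triangle marks the upper end of the interval where no UMI was found. Il1b lay between 48.7 and 52.3 CPM in the clusters, against 1.43 in cancer-gated and 202 in macrophage-gated barcodes.

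The libraries were then compared within each class that had at least 50 barcodes in both, calling a gene when its level differed at least 2-fold with at least 20 UMIs in all. In cancer-gated barcodes, 4 of 8 members with enough UMIs (Il6, Il11, Il1rn and Csf2) were called higher in KPCA.FSTKO_hFSTL3, where 6.65% of 15693 genes were, and 1 (Csf3) lower, where 10.7% were, against 17.3% in either direction. The median log2 ratio of the 8 was 1.11, beside 0.03 over all genes. In this and the other classes, all genes were not matched to the members by number of UMIs, and most of these 8 were sparse. Acinar genes stood at 783 CPM in cancer-gated barcodes of KPCA.FSTKO_hFSTL3 against 59.1 in those of KPCA.FSTKO, and the 12 cancer markers summed to 5661 against 6398.5 CPM. None of the 10 leading genes was a cancer marker in KPCA.FSTKO_hFSTL3, against 7 of 10 in KPCA.FSTKO. Leading genes were ranked against the rest of the same library, so these counts do not compare the 2 cancer classes. Unresolved barcodes of KPCA.FSTKO_hFSTL3 themselves held the cancer markers at 3526 CPM.

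Il1rn gave the largest of these ratios, at 0.783 CPM (74 UMIs) in KPCA.FSTKO and 4.68 CPM (36 UMIs) in KPCA.FSTKO_hFSTL3, or 5.98-fold (3.90 to 9.03). Its 36 UMIs lay in 31 barcodes, at most 3 in each, and the ratio stayed past 2-fold in 11 of 11 alternatives, between 2.29 and 2.73 on the log2 scale. Il6 differed 2.67-fold (1.20 to 5.37) and Il11 2.51-fold (1.18 to 4.85), on 10 and 11 UMIs in KPCA.FSTKO_hFSTL3. Il6 stayed past 2-fold in 10 of 11 alternatives and Il11 in 7 of 11, with lowest log2 ratios of 0.99 and 0.50. Unresolved barcodes of that library held Il1rn at 13.2 CPM and Il6 at 29.0, both above its cancer-gated level. Per 100 C1qa, C1qb and C1qc UMIs, Il1rn stood at 4.50 and 19.8 in cancer-gated barcodes of KPCA.FSTKO and KPCA.FSTKO_hFSTL3, and at 0.590 and 0.891 in macrophage-gated ones. The source of the Il1rn UMIs in cancer-gated barcodes was not tested. Csf1, at 24.3 and 47.2 CPM, differed 1.95-fold (1.74 to 2.18) and fell just under the limit, while Lif differed 1.15-fold (0.949 to 1.38).

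The Csf2 ratio of 2.38 (1.64 to 3.39) rested on 1 barcode: without the barcode richest in Csf2 in each library the log2 ratio was -0.74, on the other side. Csf3 stood at 0.973 CPM and at 0.390 CPM, the latter from 3 UMIs of 1 barcode, a ratio of 0.401 whose interval (0.0812 to 1.21) includes equal levels.

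In stromal-gated barcodes, 1 of 4 members with enough UMIs (Il11) was called higher, where 3.1% of 11032 genes were, and none lower, where 6.56% were, against 9.66% in either direction. The ratio of Il11 was 4.27 (1.76 to 10.5) on 11 and 13 UMIs. Without the richest barcode of each library, too few UMIs remained for a call. Il6 differed 1.23-fold (1.0006 to 1.498) and Csf1 1.31-fold (1.07 to 1.59), and the 1.99-fold (1.42 to 2.76) ratio of Lif rested on the barcode with 46 UMIs. Over 11 alternatives the log2 ratio of Il6 ran from -0.57 to 3.36 and that of Lif from -1.22 to 1.92. The median log2 ratio of the 4 was 0.69, beside 0.00 over all genes.

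In macrophage-gated barcodes, none of 7 members was called higher, where 3.89% of 11971 genes were, and 1 (Tnf) lower, where 3.84% were, against 7.74% in either direction. Tnf was at 14.6 CPM in KPCA.FSTKO and 7.29 in KPCA.FSTKO_hFSTL3, a ratio of 0.498 (0.297 to 0.794), and only 5 of 11 alternatives kept it past 2-fold, although all 11 kept its direction. Il1b was at 107.5 CPM and 202, a ratio of 1.88 (1.69 to 2.07), and was seen in 17.3% and 28.4% of barcodes, or 6.71% and 10.8% after thinning. Il1a differed by 1.10-fold (0.944 to 1.28), Il6 by 0.899 (0.683 to 1.17) and Il1rn by 1.46 (1.22 to 1.73). Acinar genes stood at 104 CPM and 1596 in this class, and their part was not tested. The median log2 ratio of the 7 was 0.41, beside 0.09 over all genes. Erythroid-gated barcodes had 2 members with enough UMIs, of which Il1b was called higher on 1 and 34 UMIs (log2 ratio 4.41), where 90.9% of 3926 genes were (92.1% in either direction).

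**Figure D4:**
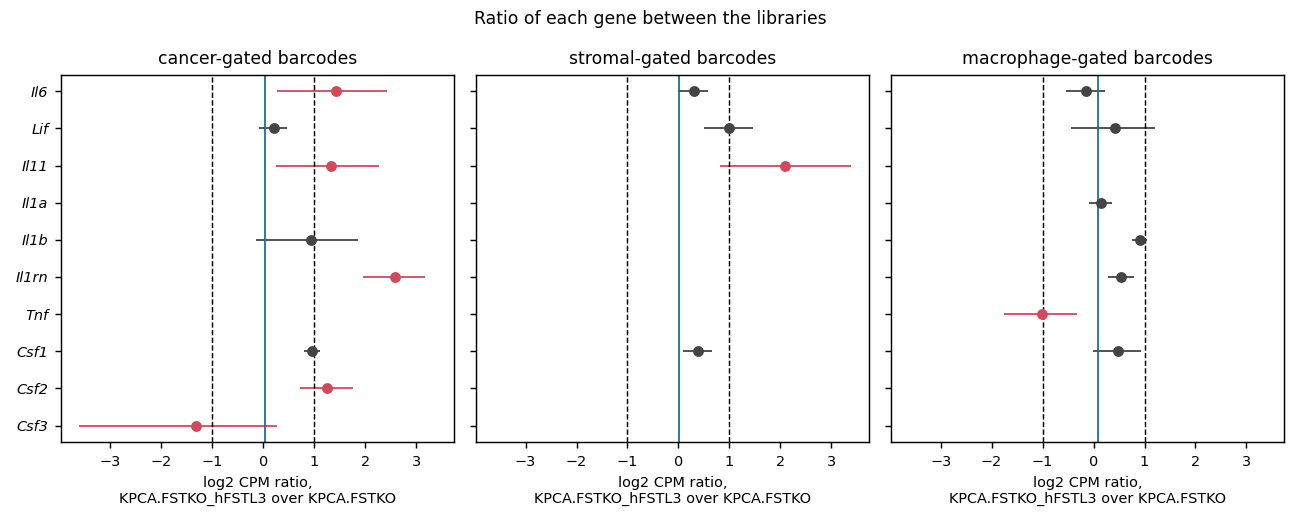
Log2 ratio of the level in KPCA.FSTKO_hFSTL3 over KPCA.FSTKO for each gene with at least 20 UMIs in the cancer, stromal or macrophage class, with 95% counting intervals as bars; dashed lines mark 2-fold, the blue line the median over all genes, and red points the genes past 2-fold. Of the 3 classes drawn, Il1rn in cancer-gated barcodes had the highest log2 ratio, 2.58, and only Csf3 in cancer-gated and Tnf in macrophage-gated barcodes lay past 2-fold on the lower side.

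Receptor genes were read in the same classes. Of the 14 receptor genes, Csf3r, which binds the Csf3 product, stood at 1317 CPM in neutrophil-gated barcodes of KPCA.FSTKO against 14.6 in macrophage-gated and 0.0529 in cancer-gated barcodes, and the decoy receptor Il1r2 at 3396 against 58.7 and 0.539. The signalling receptor Il1r1 was highest in stromal-gated barcodes, at 334 CPM, against 22.3 in cancer-gated, 11.7 in macrophage-gated and 0 UMIs in neutrophil-gated barcodes. Csf1r, which binds the Csf1 product, reached 326 CPM in macrophage-gated against 13.8 in stromal-gated and 1.04 in cancer-gated barcodes. In neutrophil-gated barcodes it had 1 UMI.

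The gp130 chain Il6st was found in every one of the 5 classes, at 123 CPM in stromal-gated, 57.3 in macrophage-gated, 31.7 in cancer-gated, 28.8 in lymphocyte-gated and 6.62 (1 UMI) in neutrophil-gated barcodes of KPCA.FSTKO. Its partner Il6ra was highest in neutrophil-gated (152 CPM, 23 UMIs) and macrophage-gated barcodes (103 CPM), Il11ra1 in stromal-gated barcodes (83.5 CPM), and Lifr differed less among the large classes, at 43.1 in macrophage-gated, 31.4 in cancer-gated and 28.7 in stromal-gated barcodes. The beta chain Csf2rb stood at 331 CPM in neutrophil-gated and 192 in macrophage-gated barcodes and at 0.296 in cancer-gated barcodes. Of the Tnf receptors, Tnfrsf1a lay between 6.18 (lymphocyte-gated) and 212 CPM (neutrophil-gated) and Tnfrsf1b between 14.3 (cancer-gated) and 205 (neutrophil-gated). The lymphocyte level of 6.18 CPM equals the floor of 3 UMIs in that class.

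Across a list of 39 receptors, related ligands and regulators of these pathways, 3 of 33 tested genes were called higher and 5 lower in cancer-gated barcodes of KPCA.FSTKO_hFSTL3, beside 6.65% and 10.7% of all genes. The 3 higher were Csf1r (1.04 and 2.08 CPM in KPCA.FSTKO and KPCA.FSTKO_hFSTL3), Il18 (0.338 and 1.82) and the inflammasome adaptor Pycard (2.60 and 6.38). The 5 lower were the alarmin Il33 (402 and 190 CPM), the STAT3-induced inhibitor Socs3 (125 and 53.6), Casp1 (10.9 and 4.16), Csf2ra (6.74 and 2.73) and Csf2rb (0.296 and 0.130). The Csf2rb call rests on 28 and 1 UMIs, and the interval of its ratio of 0.439 (0.0107 to 2.66) includes equal levels. Kitl, which supports mast cells, was at 192 and 104 CPM and was not past 2-fold.

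In stromal-gated barcodes, 4 of 31 were called lower and none higher, beside 6.56% and 3.1% of all genes. The 4 were Il6ra (19.6 and 7.53 CPM), Tnfrsf1b (33.7 and 16.01), Kitl (24.0 and 9.42) and Il10 (29 and 0 UMIs). In macrophage-gated barcodes, the anti-inflammatory Il10 was higher (4.50 and 11.3 CPM) and Il33 lower (14.6 and 4.74) among 37, beside 3.89% and 3.84% of all genes. None of the 14 receptors was called there. Csf1r was at 326 and 473 CPM and the gp130 ligand Osm at 180 and 163.

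Genes with the most similar pattern were sought over the 7 classes of KPCA.FSTKO with at least 50 barcodes, by Pearson correlation of log2(CPM + 1) among 14329 genes. Il1a was most like Siglec1 (1.00), Adgre1 (1.00), itself a macrophage gate marker, and B3gnt7 (1.00). Il1b was most like F630028O10Rik, Siglece and Fpr1 (each 0.99), Il1rn like Treml2, Gm26887 and Gm36043 (each 0.99) and Tnf like Themis2, Cass4 and Treml2 (each 0.99). Il6 was nearest to Epb41l3, Npl and Ppp1r9a (each 0.97), Lif to Bmpr1a (0.97), Prss36 (0.96) and Pxylp1 (0.95), and Il11 to Wnt5b, Sema6c and Rspo3 (each 1.00). Csf1 was nearest to Rab15, Gpc3 and Hoxc6 (each 0.96), Csf2 to Kcnk7 (0.98), Cpa6 (0.97) and Gm31793 (0.97), and Csf3 to Hc (1.00), Cldn1 (0.98) and Rapgefl1 (0.97). The 7 points share 1 library and differ in depth, the neighbours were selected as the top of all genes, and for the sparse Il11, Csf2 and Csf3 they rest on few UMIs.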

How the data were processed

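Each genotype gave 1 10x Genomics 3′ library from 4 pooled omental tumors. The authors deposited raw UMI counts per gene and barcode made with Cell Ranger (version 3.1.0 in the processing notes, 7.2.0 in the matrix header) on mm10, with tumors pooled before library preparation. Barcodes with under 20% mitochondrial UMIs and more than 200 but fewer than 8000 genes were kept. No doublet step is named and doublets were left in. A barcode joined the class with the largest share of its markers at 2 or more UMIs, with at least 3 such markers and a share at least 2 times that of every unrelated class; macrophage, monocyte and dendritic lists count as related. Gene UMIs were summed per class and scaled to the class total (UMIs per 1000000 UMIs, CPM). Levels have exact Poisson intervals and shares exact binomial intervals. Ratios have exact binomial intervals, conditional on the sum of both counts. Barcodes were also thinned to 1000 UMIs. Genes were called at a 2-fold ratio with at least 20 UMIs in classes of at least 50 barcodes. The size rule was tried on simulated cancer class sums, with changes larger than 2-fold in genes well above the minimum of 20 UMIs. The gate was tried on simulated barcodes that each held markers of 1 list only. These trials do not cover changes near 2-fold in sparse genes, or barcodes with markers of several classes. Named were the 10 members, the pathway list, and for each member the 3 genes closest in pattern with at least 100 UMIs. A few genes outside this rule that lead a cluster were named after their values were seen. Members and lists were chosen with earlier results of these data known. The analysis used Python 3.11.15, scipy 1.17.1 and edgeR 4.0.16 (TMM scaling as an alternative only). Clusters came from Seurat 5.3.0 (2000 variable genes less any of the 10 members, 10 components, resolution 0.8). Promoters were taken from RefSeq, with no entry for Csf3 in the table used. Alternatives varied the filters, gate, clustering, scaling, minimum and fold. The genotype of the KPCA line is given in part, and the rest of it is not reported here.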

Additional observations from a re-analysis of the deposited data

Results flagged for a closer look

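UMIs of the 10 cytokine genes were also present in barcodes left out by the mitochondrial and gene filters. In KPCA.FSTKO, the 805 barcodes outside the filters held 1643 UMIs of the 10 genes (63.1 CPM, against 110 in the barcodes kept). In KPCA.FSTKO_hFSTL3, the 203 such barcodes held 941 (88.4 CPM, against 165). Csf1 and Lif made up most of them, with 749 and 525 UMIs in KPCA.FSTKO and 538 and 162 in KPCA.FSTKO_hFSTL3, and Il1b, at 89 and 14 UMIs, stood at 3.42 and 1.32 CPM there.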

How the results depend on the processing

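No paired analysis was possible because each genotype had 1 library and the labels give no replicate numbers. With counts of 10 members and few UMIs, calls moved with the settings, and the cause was not tested. Of 11 alternatives to each single ratio, 176 of 207 values stayed within the counting error, 28 moved and 3 reversed, meaning that a ratio called at 2-fold changed sign. All 3 were Csf2 in cancer-gated barcodes, with log2 ratios of -1.18 (gate at 1 UMI per marker), -1.84 (gate share of 3) and -0.74 (without the richest barcode). Ratios not called also changed sign under some settings, down to -1.27 for Il1b (Seurat clusters) and -0.24 for Lif (mean over barcodes) in cancer-gated, and to -1.22 for Lif and -0.57 for Il6 (gate at 1 UMI) in stromal-gated barcodes. In macrophage-gated barcodes Il6, Il1a and Csf1 did so in 1 of 11 each. Of 350 single levels, 75 moved. In KPCA.FSTKO, a gate share of 3 left 1 member highest in the cancer, 1 in the stromal and 2 in the macrophage class, and both Seurat clusters and the shortened monocyte list left 0 in the macrophage class. In cancer-gated barcodes, 2 members were called higher with a gate share of 3 or without the richest barcode. Called lower were 2 (gate share of 3), 0 (shortened monocyte list) or 3 (no minimum of UMIs). In stromal-gated barcodes, 2 were called higher with mitochondrial share under 10%, gate share of 3 or a ratio of 1.5, 3 with no minimum, and 0 with a gate at 1 UMI, a minimum of 50 UMIs or without the richest barcode. Called lower there were 1 (gate at 1 UMI, without the 5% deepest barcodes, shortened monocyte list, no minimum) or 2 (Seurat clusters). In macrophage-gated barcodes, 1 was called higher by the mean over barcodes, with no minimum or at a ratio of 1.5. Called lower there were 3 with no minimum, and 0 with mitochondrial share under 10%, with either other gate, with Seurat clusters, by the mean over barcodes or without the richest barcode.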
